A study of Mus musculus with 12 samples.

Results

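The myogenic regulatory factors Myod1, Myf5, Myf6 and Myog were examined in a list of H3K27me3 sites from immortalized mouse embryo fibroblasts. For each of these 4 genes, every listed site was taken that overlapped the gene body or the 30 kb on either side of it, a stretch called the window of the gene. This gave 29 distinct sites of the 101389 in the list, 15 at Myod1, 14 at Myog and 0 at Myf5 and Myf6, whose windows overlap. The sites come from chromatin immunoprecipitation followed by sequencing, in which DNA bound to histone H3 trimethylated at lysine 27 is enriched with an antibody and sequenced.

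The cells (iMEF) carried floxed Ash2l alleles that had been deleted, and lived on a lentivirally introduced human ASH2L fused at its N-terminus to FKBP12F36V. ASH2L is a subunit of the COMPASS complexes that methylate lysine 4 of histone H3, and the compound dTAG directs the fusion protein to degradation. The 8 H3K27me3 libraries were 2 of untreated cells and 2 each of cells exposed to dTAG for 16 h, 24 h and 48 h, and the 4 inputs were 2 of untreated and 2 of 48 h treated cells. The untreated cells, titled WT, contain the fusion protein as well, and most of the work of the study used a single clone. The list comes from the second of 2 H3K27me3 experiments of the study. It is pooled over the libraries and gives a position for each site but no value for any library. Whether a site was marked in untreated cells, or changed with dTAG, cannot be read from it, the depth behind a site is unknown, and no replicate error exists. The study itself compared each time point with untreated cells, and reported enhanced H3K27me3 at only a few sites, at 16 h and later. What follows describes where the sites lie, beside the same measures over 21755 protein-coding genes.

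The myogenic regulatory factors are basic helix-loop-helix (bHLH) proteins that pair with E-proteins and bind E-boxes in the DNA of muscle genes. Myf5 and Myod1 commit mesodermal cells to the skeletal muscle lineage, Myf6 (also called Mrf4) acts in both commitment and later maturation, and Myog (myogenin) is needed for myoblasts to fuse and differentiate. Myod1 was found by its ability to turn fibroblasts into muscle cells. H3K27me3 is placed by Polycomb repressive complex 2 and is widely found over developmental regulators in cells of other lineages.

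The sequences behind these loci are shown first, with the E-boxes that they hold. The promoter table from RefSeq (GRCm38.p6) has entries for Myog and Myf5, covering 250 bases before and 50 after the start of the gene. Neither entry has a base inside a listed site. Short sites of the windows are shown in whole. For Myod1 and for Myog, the site of 200 to 300 bp nearest to the transcription start site (TSS) was taken. They are Myod1 chr7:46384253-46384481 and Myog chr1:134276478-134276712, both in intergenic sequence. The promoters are on the strand of their gene, Myog at chr1:134289754-134290053 (plus) and Myf5 at chr10:107486085-107486384 (minus), and the sites are on the plus strand. Capitals mark the E-box CANNTG, which reads the same on both strands.
Myog promoter: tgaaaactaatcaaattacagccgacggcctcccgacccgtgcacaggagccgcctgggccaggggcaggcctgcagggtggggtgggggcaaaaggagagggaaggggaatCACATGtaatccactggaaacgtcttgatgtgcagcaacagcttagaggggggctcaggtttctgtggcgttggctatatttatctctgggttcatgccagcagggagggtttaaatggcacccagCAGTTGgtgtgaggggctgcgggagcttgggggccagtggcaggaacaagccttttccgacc
Myf5 promoter: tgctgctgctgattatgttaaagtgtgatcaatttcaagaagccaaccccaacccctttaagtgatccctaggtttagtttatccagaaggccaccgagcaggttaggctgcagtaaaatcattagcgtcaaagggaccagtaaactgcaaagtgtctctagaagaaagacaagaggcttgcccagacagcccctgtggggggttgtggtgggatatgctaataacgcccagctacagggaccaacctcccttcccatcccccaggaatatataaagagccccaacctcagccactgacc
Myod1 site: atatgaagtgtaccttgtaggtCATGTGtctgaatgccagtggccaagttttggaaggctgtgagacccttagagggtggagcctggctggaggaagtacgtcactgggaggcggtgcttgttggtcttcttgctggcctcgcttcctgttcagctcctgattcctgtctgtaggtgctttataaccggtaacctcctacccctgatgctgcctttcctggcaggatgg
Myog site: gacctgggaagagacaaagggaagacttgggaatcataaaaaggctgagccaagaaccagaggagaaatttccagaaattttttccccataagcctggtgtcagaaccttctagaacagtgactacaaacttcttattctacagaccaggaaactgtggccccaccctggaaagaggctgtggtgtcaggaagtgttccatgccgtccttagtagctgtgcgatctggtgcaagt

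The Myog promoter held 2 E-boxes, CACATG and CAGTTG, and the Myf5 promoter none. Of the 32851 promoters of this length in the table, 72.3% held at least 1 E-box, so that neither count stands apart. CpG dinucleotides numbered 9 in the Myog and 3 in the Myf5 promoter, with a median of 7 over all promoters. The 229 bp site at Myod1 held 1 E-box and 4 CpGs, and the 235 bp site at Myog no E-box and 2 CpGs. The other sites of this width went the other way in E-boxes, since those of 247, 200 and 239 bp at Myog held 2 each and the one of 237 bp at Myod1 held 0, so that the loci cannot be told apart by them. Among all 17554 listed sites of 200 to 300 bp, 78.4% held CANNTG, and the median was 2 CpGs. The E-box CAGCTG, a form included in CANNTG, was in none of the 4 printed sequences, and in 16.3% of promoters and 16.2% of the sites of this width.

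At Myod1, the gene itself and nearly all of its surroundings lay in listed sites. Myod1 (ENSMUSG00000009471.4, chromosome 7, 46376474 to 46379099, plus strand, GRCm38) has 3 exons and a CpG island at its TSS. A single site of 14413 bp (46366938 to 46381350) contained the whole gene with all 1861 exon bases. It ran from -9536 to +4876 bp relative to the TSS, so that the larger part of it was upstream, and 98.9% of all listed sites were narrower. Of the 4 genes, Myod1 alone had a site within 1 kb of its TSS, a share of 25% that compares with 26.9% of protein-coding genes. It was also the only one to lie wholly inside 1 site, as did 2.79% of protein-coding genes.

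Sites covered 54933 of the 62626 bp in the Myod1 window, or 87.7%. This share was higher than that of 99.5% of protein-coding genes, whose median was 2.79%. Coverage was similar on both sides of the gene, with 88.5% of the 30 kb upstream and 85.9% of the 30 kb downstream. Enhancers of Myod1, a distal regulatory region and a core enhancer, are known to lie upstream of the gene. On that side, 7 further sites of 237 to 5506 bp followed each other, and in bins of 5 kb between 73.3% and 100% of the bases were covered out to 30 kb.

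The sites of the Myod1 window stood close together. All 14 gaps between neighbouring sites were under 1 kb, with a median of 574 bp and a range from 56 to 960 bp. When sites less than 1000 bp apart were joined, 1 domain of 88.1 kb resulted (46345988 to 46434062), which took in 19 listed sites and of which 89.5% was listed. It extended from -30486 to +57588 bp around the TSS, and only 62 of 52153 domains joined in this way were at least as wide. Its upstream end lay in the long intergenic non-coding RNA gene 1700025L06Rik, of which 94% of the body was covered. Its downstream end lay in Kcnc1, a gene for a voltage-gated potassium channel of neurons, of which 85.3% was covered. The widest site of the window, with 21004 bp (46390399 to 46411402), lay over the TSS of Kcnc1 and not of Myod1. All 3 CpG islands in the window overlapped a site.

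Over 100 kb on either side, the sites at Myod1 came to an end downstream but not upstream. Downstream, coverage was 100% between 45 and 55 kb from the TSS, 51.8% in the bin from 55 to 60 kb, and 0% in every bin from there to 100 kb. Upstream, every bin to -100 kb held sites, between 30% and 100% of its bases. Within 100 kb on either side there were 40 sites over 64.3% of the bases, and within 500 kb 102 sites over 41.4%.

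**Figure D1:**
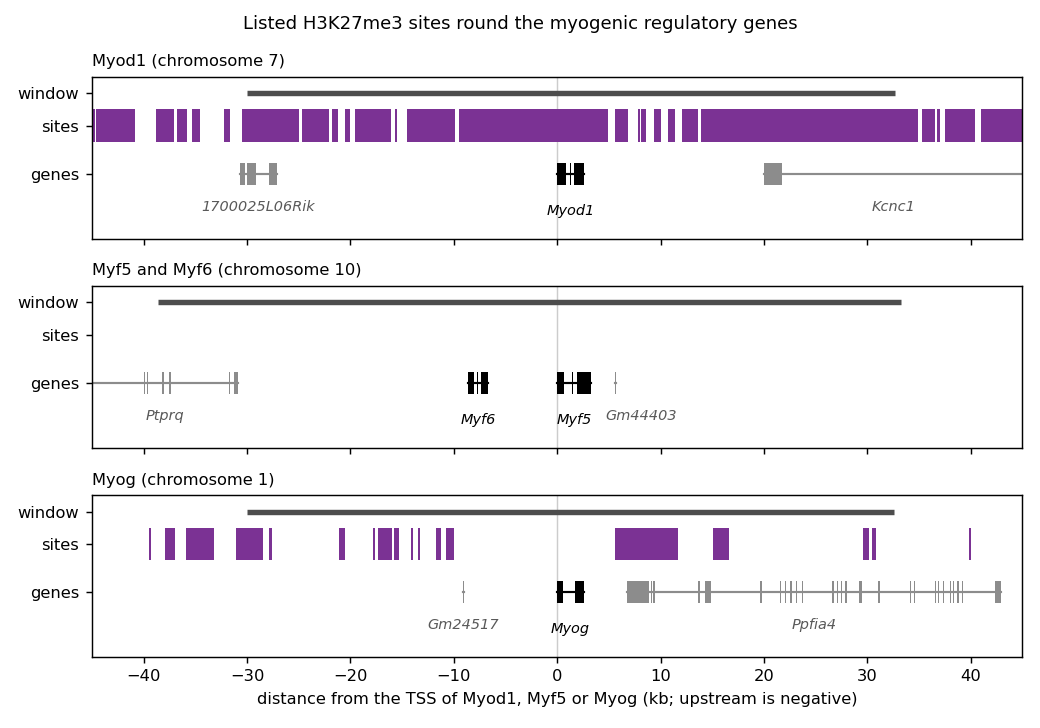
Listed H3K27me3 sites (purple), genes (black for the 4 factors, grey for others, boxes are exons) and windows (grey bar), by distance in kb from the TSS of Myod1, Myf5 or Myog, with upstream to the left. The 14413 bp site spans the whole of Myod1, no site lies in the joint window of Myf5 and Myf6, and Myog sits in a stretch of 15555 bp without a site.

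Myog was flanked by sites on both sides while the gene itself had none. Myog (ENSMUSG00000026459.5, chromosome 1, 134289989 to 134292548, plus strand) has 3 exons and no CpG island at its TSS. None of its 1495 exon bases and none of its introns were covered. The nearest site on the downstream side began 5619 bp from the TSS and was the widest of the window, with 6091 bp (134295608 to 134301698). It covered the 3' end of Ppfia4, which encodes a liprin-alpha scaffold protein and runs towards Myog on the minus strand, and it held the single CpG island of the window. The nearest upstream site, of 772 bp (134279281 to 134280052), ended 9937 bp before the TSS. The site-free interval between these was 15555 bp, and 76.1% of protein-coding genes had one at least as long around their main TSS.

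In the Myog window 14 sites covered 14738 of 62560 bp, or 23.6%. This was more than in 82.9% of protein-coding genes, although the number of sites was nearly that of Myod1. The sites were narrower, with a median of 544.5 bp against 1263 bp at Myod1 and 677 bp over all sites on chromosomes. Upstream, 10 sites covered 20.5% of 30 kb, all of them intergenic. Downstream, 4 sites covered 28.7%, each overlapping Ppfia4, of whose body 21.2% was covered. The snRNA gene Gm24517 lay in the site-free interval, with its TSS 939 bp from the nearest site. Of the 13 gaps in the window, 6 were under 1 kb, and joining sites less than 1000 bp apart left 8 domains, the widest of which was the 6091 bp site.

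The sites around Myog continued beyond the window as separate stretches. In 5 kb bins, coverage reached 100% between 50 and 55 kb upstream and 92.7% between 75 and 80 kb upstream, whereas both bins next to the TSS were at 0%. Downstream it fell from 87.6% in the bin from 5 to 10 kb to 0% between 45 and 80 kb, beyond which the 2 bins with sites had 4.9% and 31.6%. Within 100 kb on either side 25 sites covered 19.7% of the bases.

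**Figure D2:**
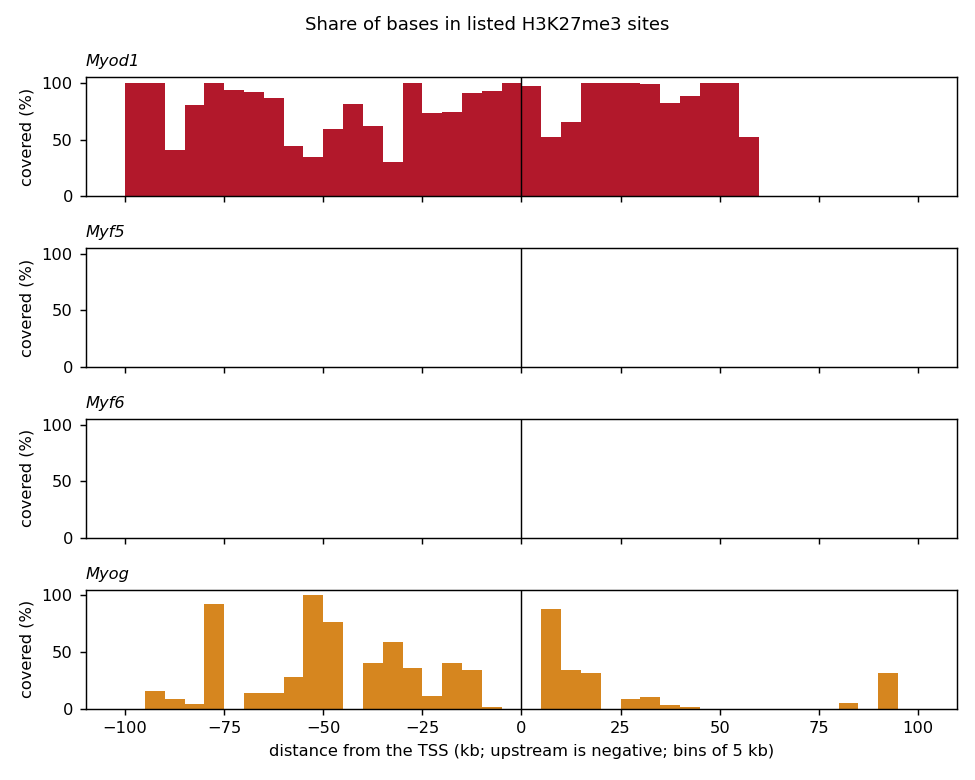
Share of bases in listed sites, in percent, in bins of 5 kb out to 100 kb on either side of the TSS of each gene. Every bin at Myod1 holds sites from 100 kb upstream to 60 kb downstream, between 30% and 100% of its bases, Myog is covered in separate stretches with 0% in both bins at the TSS, and the panels of Myf5 and Myf6 are empty.

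Myf5 and Myf6 lay in a long stretch with no listed site. The genes are neighbours on the minus strand of chromosome 10, Myf5 (ENSMUSG00000000435.1) at 107482908 to 107486134 and Myf6 (ENSMUSG00000035923.4) at 107492853 to 107494737, each with 3 exons and no CpG island at the TSS. Of protein-coding genes, 67.6% had at least 1 site in their window. The nearest site to both was 2701 bp wide (107270586 to 107273286) and lay at the promoter of Lin7a, whose protein acts in the sorting of membrane proteins, 212848 bp from the TSS of Myf5 and 221451 bp from that of Myf6. The next site on the other, upstream side was 394 bp wide (108133112 to 108133505), at a distance of 646978 bp from Myf5 and 638375 bp from Myf6.

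The interval between these sites was 860 kb. Of 101285 gaps between neighbouring sites in the list, 454 (0.448%) were at least as long, 27 of them on chromosome 10. Counted by genes, 11.5% of protein-coding genes lay in an interval at least as long. It wholly contained 7 annotated genes, among them the protein-coding Ptprq, a receptor-type phosphatase of the inner ear, and Otogl, which encodes an otogelin-like protein. The enhancers of the pair are known to be spread over a long stretch upstream that reaches into Ptprq, and no site was listed in the body of Ptprq. The miRNA gene Gm44403, which lies in both windows, was likewise without a site. None of the 4 factors has a second RefSeq copy on a sequence outside the chromosomes, and neither the windows nor the interval held assembly gap bases.

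The loci differed in base composition in a way that moves with the number of sites over the genome. GC content was 38.3% in the window of Myf5 and 38.2% in that of Myf6, against 50.3% at Myod1, 49.3% at Myog and a median of 44.5% over protein-coding genes. Of genes whose window had 36 to 40% GC, 29.9% had a site in it, and of those with 48 to 52% GC, 84.9%. A site-free interval as long as that of Myf5 was found for 42.2% of the genes with 36 to 40% GC. Among genes with 48 to 52% GC, the covered share of Myod1 was higher than that of 98.4% of the genes and the share of Myog higher than that of 65.9%. Repeats took up similar shares of the 4 windows, between 18.5% at Myf6 and 21.6% at Myog. In the site-free interval around Myf5 and Myf6 they took up 31.2%, against 20.2% in that around Myog. The part of GC content or of repeats in the lack of sites at Myf5 and Myf6 was not tested. A CpG island at the TSS was not accompanied by more sites over all genes, since 26.6% of genes with an island and 27.3% of those without had a site within 1 kb.

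**Figure D3:**
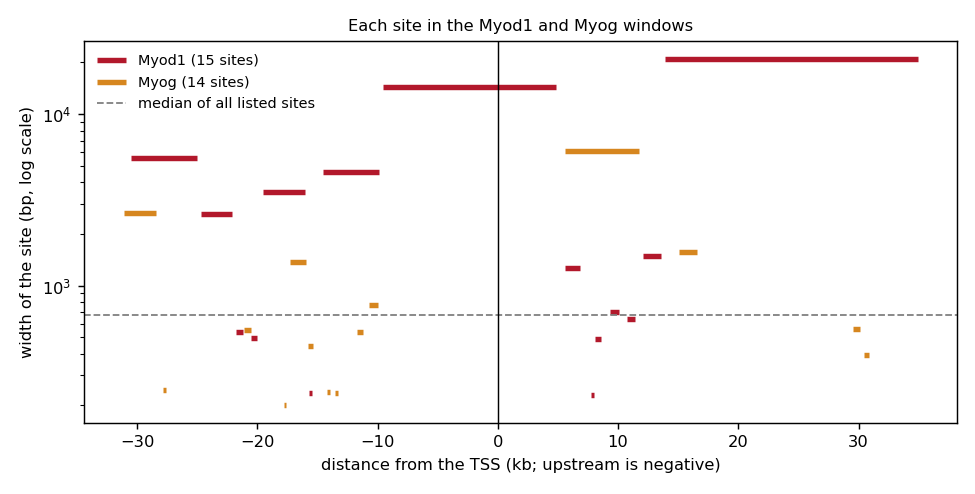
Width in bp (log scale) of each of the 15 sites at Myod1 and the 14 at Myog against the stretch it covers, in kb from the TSS. The dashed line is the median of 677 bp over all listed sites on chromosomes, and the sites of 14413 and 21004 bp at Myod1 are the only ones over 10 kb.

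The 29 sites were set beside all sites on chromosomes in width and composition. Their median width was 639 bp with quartiles of 446 and 2615 bp, against 677 bp with quartiles of 363 and 1642 bp over the list, and 34.5% were under 500 bp, against 38.5% of all sites. Of the 29, 2 were at least 10 kb wide (6.9%), against 2.35% of the list, and both were at Myod1. The median GC content was 49.9% (quartiles 48.5% and 53.7%), against 47.7% over all sites (quartiles 45.6% and 50.2%), and the median ratio of observed to expected CpG was 0.151, against 0.182. The ratio was higher in the wider of the 29 sites, with a median of 0.197 for those of at least 500 bp and 0.236 for those of at least 1000 bp. Within the group the sites with the highest ratios were the one of 772 bp upstream of Myog, at 0.339, and those over Kcnc1 (0.304), over the 3' end of Ppfia4 (0.289) and over Myod1 (0.288). The last 3 overlapped a CpG island.

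Most genes that act before the myogenic factors in the muscle lineage had sites at their starts. Of 14 upstream regulators, 10 (71.4%) had one no more than 1 kb from a TSS, against the 26.9% of all protein-coding genes, and the median covered share of their windows was 40%. Highest was Lbx1 with 92.1%, a homeobox gene of migrating limb muscle precursors, followed by Tcf15 (paraxis, in somite formation) with 87.2%. Pax7, which marks satellite cells, had 80.6%, and Pax3, which acts in the dermomyotome, 59.5%. Eya2, a transcriptional coactivator, had 60.3%. Tcf21, Tbx1 and Msc, which act in head and branchial muscle, had 45.8%, 41.4% and 11.6%. The somite gene Meox2 had 3.35%, in 2 sites.

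These regulators were not all alike. Lbx1, Tcf15, Tbx1 and Msc lay wholly inside 1 site, as Myod1 did. Six4 and Eya1, which act together upstream of the myogenic factors, had no site in their windows, like Myf5 and Myf6, and both had a CpG island at the TSS. Meox1 had sites in its window but none within 1 kb, like Myog.

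Among 33 genes of differentiated muscle, which encode proteins of the sarcomere, the neuromuscular junction, calcium handling and fusion, 20 (60.6%) had such a site near a TSS, against 26.9% of all protein-coding genes. The median covered share was 19.7%, against 2.79%, and 4 had no site in their window, as did 32.4% of all genes. The median GC content of these windows was 49.3%, and for all genes with 48 to 52% GC the median covered share was 13.1%, with no site in 15.1% of the windows. The highest shares were those of Myh7, a slow and cardiac myosin heavy chain, with 70.3%, Mymk (myomaker, which fuses myoblasts) with 61.7%, Myh3 (embryonic myosin heavy chain) with 58.2% and Cacna1s, the calcium channel of the T-tubule, with 53.9%. In this list 6 genes had a CpG island at the TSS, 3 of them with a site within 1 kb. Several of the 33 genes, among them myosin heavy chain genes on chromosome 11, are neighbours whose windows overlap. The 33 are therefore not all separate loci.

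The partners and inhibitors of the myogenic factors had sites at 2 starts. Of 14 genes for E-proteins, Mef2, Id, Twist and Hes1 proteins, 2 (14.3%) had a site that near to a TSS, against 26.9% of all protein-coding genes, and the median covered share was 1.27%, against 2.79%. These were Mef2b, a muscle and lymphoid transcription factor, with 31.9% of its window covered, and Id4, an inhibitor of bHLH proteins, with 1.95%. Of the E-protein genes, Tcf4 and Tcf12 had no site in their windows, and Tcf3 had 7 over 14.3% of its window, the nearest 8681 bp from a TSS. A CpG island lay at the TSS of 13 of the 14 genes.

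The proneural genes are another family of bHLH regulators. Their 12 windows held 114 sites, and 11 genes (91.7%) had one no farther than 1 kb from a TSS, 9 of them wholly inside 1 site. Over all protein-coding genes these shares were 26.9% and 2.79%. Neurod2, Neurog1, Ptf1a and Neurog3 had covered shares of 88.5%, 87.6%, 85.7% and 84.2%, next to the 87.7% of Myod1. Olig2 had 78.9%, Atoh1 42.4% and Neurog2 38.7%. Lower shares were found for Atoh7 (22%), Neurod1 (21.2%) and Neurod6 (15.1%), which were of the order of Myog's 23.6% but with a site at the TSS. Neurod4 was the exception with 1.03%.

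Regulators of other mesenchymal fates and genes of fibroblasts were set beside all genes in the same way. Of 12 regulators of bone, cartilage, fat and epithelial-mesenchymal transition, 3 (25%) had a site near a TSS by the same measure, close to the 26.9% of all protein-coding genes, and 8 had none in their window, as did 32.4% of all genes. The 3 were Cebpa and Pparg, which drive fat cell formation, with 10.8% and 2.83% of the window covered, and Sp7 (osterix, for osteoblasts) with 3.94%. Of 12 genes typical of fibroblasts, 1 (8.33%, against the same 26.9%) did so, Pdgfra, a growth factor receptor of mesenchymal cells, with 14.8%. In this list 8 genes, among them Col1a1, Col1a2, Col3a1, Fn1 and Vim, had no site in their windows, and 4 had sites there. Beside Pdgfra, the latter were Pdgfrb with 15.3%, Postn with 4.36% and Lum with 2.75% of the window covered. The list of sites holds no expression, so the labelled cell type could be set only against sites at these genes. In RefSeq, 1 upstream regulator (Tbx1) and 1 muscle gene (Myl1) also have a copy outside the chromosomes, and both had sites in their windows. All of these lists are small, and no test was made of their shares. Their genes were chosen by function, but with earlier results of these data known.

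**Figure D4:**
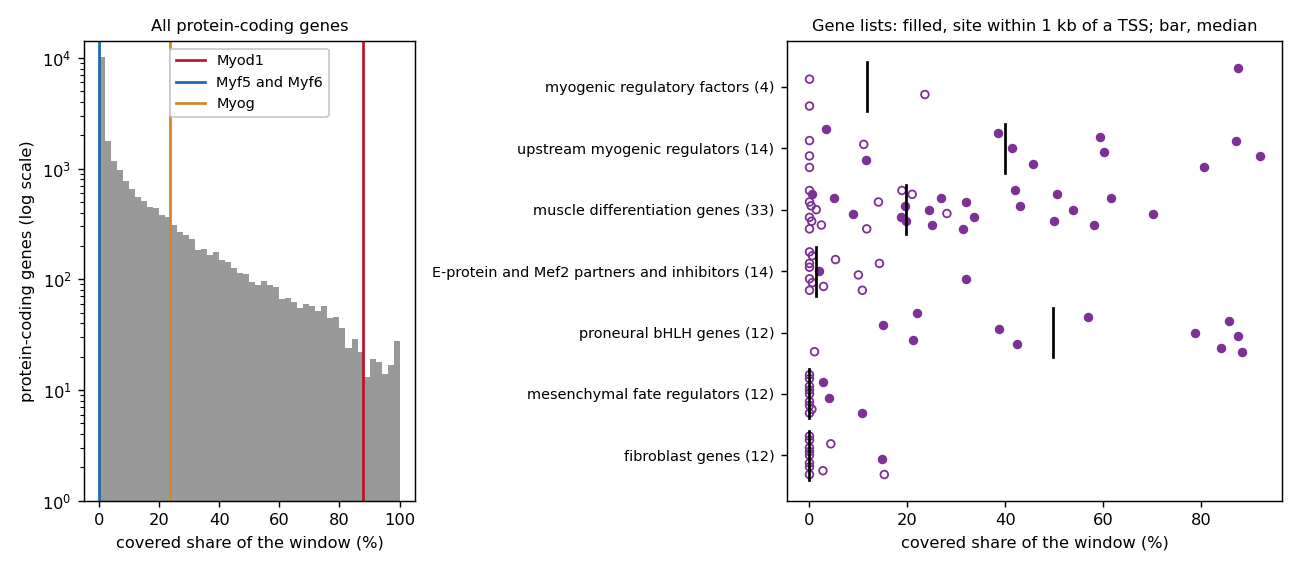
Left, number of protein-coding genes (log scale) by the share of the window in listed sites, in percent, with lines at Myod1 (87.7%), Myog (23.6%) and Myf5 and Myf6 (0%). Right, the same share for each gene of 7 lists (number of genes in parentheses), filled where a site lies within 1 kb of a TSS, with a bar at the median, which is 11.8% for the 4 myogenic factors, 40% for the upstream regulators and 49.7% for the proneural genes.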

How the data were processed

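H3K27me3 ChIP-seq was made from 8 libraries of iMEF cells with 4 inputs, grouped by sample title or, for the 48 h inputs, by the time point in their labels. Per the methods of the study, reads were trimmed with Trim Galore and aligned with BWA to mm10 (GRCm38.p6, GENCODE M25), replicates were merged with Picard, and broad peaks were called with MACS. Versions, cutoffs and the rule for joining peaks over samples are not given in the sources used here. The deposited file holds 1 list of sites by chromosome, start and end (positions, no other measured unit, no depth), with starts read as counted from 0 because the smallest width is then 200 bp. The planned test of untreated against treated libraries needed values per library and was not run, and 0 columns of per-sample values were left unused.

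Genes came from GENCODE M21 (GRCm38), chromosomes 1 to 19 and X, and 84 sites on scaffolds were left out of site summaries. A window is the gene body with 30 kb on both sides, and a site near a TSS has at least 1 bp within 1 kb of any annotated TSS. CpG islands were maximal-scoring segments of repeat-masked sequence (17 per CpG, -1 per other base) of at least 200 bp, 50% GC and an observed/expected ratio of 0.6. Percentiles are shares of protein-coding genes or sites with a lower value. Python 3.11.15, NumPy 2.4.6 and numba 0.67.0 were used, and interval functions were tested on simulated data. The text names the 4 factors, genes in their windows, list genes with a site within 1 kb of a TSS in lists of up to 14 genes, and the 4 most covered of the muscle list, and the values of some list genes are not reported here. Other named genes (Six4, Eya1, Meox1, Neurod4, the E-protein and the collagen genes, Fn1, Vim, Myl1, Pdgfrb, Postn, Lum, Ptprq, Otogl, Lin7a) were chosen after their values were seen. The factors and all lists were chosen with earlier results of these data known.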

Additional observations from a re-analysis of the deposited data

How the results depend on the processing

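All alternatives were planned. Counts not given here stayed within 1.5 times the reported value, and distances not given here were the same. The median GC content was between 49.9% and 50% in its alternatives, and the CpG ratio rose from 0.151 to 0.197 and 0.236 at minimum widths of 500 and 1000 bp. The number of factors with a site within 1 kb of a TSS was 1 in each alternative except 0 when the centre of the site had to lie in the window, since the site over Myod1 is centred upstream. The 29 sites became 19 when a minimum width of 500 bp was set and 12 at 1000 bp, 9 and 6 when sites under 1000 and under 3000 bp apart were merged, and 10, 48 and 65 with flanks of 10, 50 and 100 kb. In the same order, the covered share of the Myod1 window was 85.4%, 82.4%, 100%, 100%, 81%, 82.8% and 63.5%, and that of Myog 20.7%, 16.9%, 27.3%, 36%, 27.3%, 23.2% and 19.5%. It was 0% at Myf5 and Myf6 in all 7. With starts counted from 1, the nearest site to Myog was 5618 bp away. At a minimum width of 1000 bp, 1 partner or inhibitor gene and 0 fibroblast genes had a site within 1 kb. No paired analysis was possible because the list carries no column for a library or replicate. A broad peak caller sets the smallest width and joins nearby stretches, so site counts and widths depend on its settings, which are unknown here. The study aimed at a minimum number of raw reads per ChIP sample, but the depth reached by each library is unknown here. The lack of a listed site is not a measured absence of H3K27me3.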
